A study of Mus musculus with 19 samples.

Results

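The step from differentiated to fused myotubes was examined in 7 of the 19 libraries of the series. They were the 3 wild-type (WT) libraries of differentiated myotubes, at 48 h, and the 4 WT libraries of fused myotubes, at 72 h, chosen by their labels. The cells were primary myoblasts, the dividing precursors of skeletal muscle, from mouse hind limb. By the labels, WT cells served as control to cells deficient in Glud1, the glutamate dehydrogenase. The 2 differentiated and 4 fused libraries labelled Glud1KO are used here for comparison, as are 3 libraries of WT myoblasts grown for 24 h in growth medium. The 3 myoblast libraries labelled Glud1KO entered the fit and are used for their Glud1 level. No loss of Glud1 RNA was detected in the libraries labelled Glud1KO. It measured 103 and 96.6 CPM (counts relative to the scaled library total) in their differentiated and 132, 131, 139 and 130.2 CPM in their fused libraries, and at both stages the range overlapped that of the WT libraries, which measured 112, 102 and 104 CPM in differentiated and 133, 141, 136 and 131 CPM in fused myotubes. The log2 difference, Glud1KO label minus WT label, was -0.09 ± 0.05 (SE) in differentiated and -0.02 ± 0.04 in fused libraries (edgeR adjusted p = 0.19 and 0.75). The summed RNA level of the targeted gene thus does not bear out the label, though it cannot show whether the protein was lost. The file names mark both genotype groups as KO, with an added T in the group labelled Glud1KO. The share of 1 transcript was lower in each library labelled Glud1KO than in each WT library of its stage. Glud1-202, a processed transcript without a coding sequence, took 7.98%, 12.8% and 12% of the gene's counts in WT differentiated and 11.1%, 12.1%, 11.9% and 13.2% in WT fused libraries. Under the Glud1KO label it took 7.18% and 7.34% in differentiated and 4.72%, 5.81%, 6.08% and 6.60% in fused libraries. The exact two-sided permutation p, from absolute differences in means, was 0.2 for differentiated and 0.0286 for fused libraries. The comparison was chosen after the values were seen. The labels do not say which part of the gene was altered. Polyadenylated RNA was sequenced. The labels name neither a strain nor an age. Since nothing in them ties a replicate to its own animal or culture, p-values measure only the spread between these libraries, which may be technical.

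Differentiating myoblasts leave the cell cycle under the transcription factors Myod1 and Myogenin, and then fuse through the membrane proteins Myomaker and Myomixer into syncytia. The syncytia assemble sarcomeres, the repeating units of thick myosin and thin actin filaments, and build a membrane system that releases calcium to start contraction. During maturation, embryonic and non-muscle members of many protein families are replaced by adult muscle members, and mitochondria expand.

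Total estimated counts were 21586966 to 29896572 in the differentiated and 17055191 to 26665077 in the fused libraries. Levels are given as CPM and changes as log2 fold changes, fused minus differentiated, with their SE. Of 15123 genes tested, 11357 were called (75.1%; edgeR's quasi-likelihood test, Benjamini-Hochberg adjusted p under 0.05). Of all genes, 37.4% were higher and 37.7% lower in fused myotubes, and the median log2 fold change was -0.01. A change of at least 2-fold was called in 10.5% upward and in 15.9% downward. The 3 and 4 libraries did not overlap in 71.6% of genes. Most genes thus passed the test, and each count below is read against these shares. In bulk RNA, fewer cells of a type and less RNA per cell cannot be told apart.

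The 10 skeletal muscle identity genes, such as Acta1, Des and Chrna1, were all counted in every library, and summed to 29339 to 31507 CPM in differentiated and 30912 to 34169 CPM in fused libraries. Markers of fibroblasts, endothelium, leukocytes, Schwann cells and adipocytes were at 0 or low. The 12 fibroblast markers summed to at most 3.50 CPM, with Dpt, Lum and Tcf21 at 0 in all 7 libraries, and the 10 endothelial markers to at most 6.60 CPM, with Emcn at 0. The 12 macrophage and leukocyte markers summed to 15.3 to 18.1 CPM before and 8.20 to 9.78 CPM after, with Aif1, Fcgr3 and the 3 C1q genes at 0. The 8 Schwann cell markers summed to 21.5 to 23.2 and 30.5 to 34.3 CPM, with Gfap at 0, and the 8 adipocyte markers to at most 1.61 CPM, with Cidec and Cfd at 0. The 10 smooth muscle and pericyte markers were not low as a sum. They reached 2944 to 3162 CPM in differentiated and 5060.5 to 5473 CPM in fused libraries with Des, which skeletal muscle makes, and 204 to 213 and 317 to 328 CPM without it. Abcc9, Mustn1 and Mcam held most of the rest (means of 75.7, 79.6 and 43.1 CPM before and 169.8, 141 and 31.5 CPM after). Of the 9 tested, Des, Abcc9 and Mustn1 rose and Mcam, Notch3, Myh11 and Rgs5 fell, the last pair from below 1 CPM and not called without fused replicate 4 or with the replicate block (Rgs5 also without differentiated replicate 2 or fused replicate 1). Their part in the other changes was not tested. Kcnj8 was at 0.

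The composition of the RNA also differed between the groups. Transcripts annotated as retaining an intron took 2.86%, 3.14% and 2.83% of the counts in the differentiated libraries and 1.74%, 1.74%, 1.73% and 1.74% in the fused libraries. The groups did not overlap (exact two-sided permutation p = 0.0571, the smallest that 4 against 3 libraries can give). A set of 6 RNAs known to stay in the nucleus, namely Malat1, Neat1, Xist, Kcnq1ot1, Firre and Meg3, was chosen after the values were seen. Together they fell from 1429, 1782 and 1331 CPM to 161.5, 140.0, 134.8 and 176.6 CPM. Malat1 measured 551, 604 and 454 CPM before and 65.6, 59.4, 54.7 and 69.6 CPM after (-3.09 ± 0.10). The myoblast libraries summed to 529 to 566 CPM, below the differentiated and above the fused libraries. The same sum was 1566 and 1353 CPM in the differentiated and 105.4 to 165.7 CPM in the fused libraries labelled Glud1KO. Which part of the other changes moves with this shift was not tested.

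**Figure D1:**
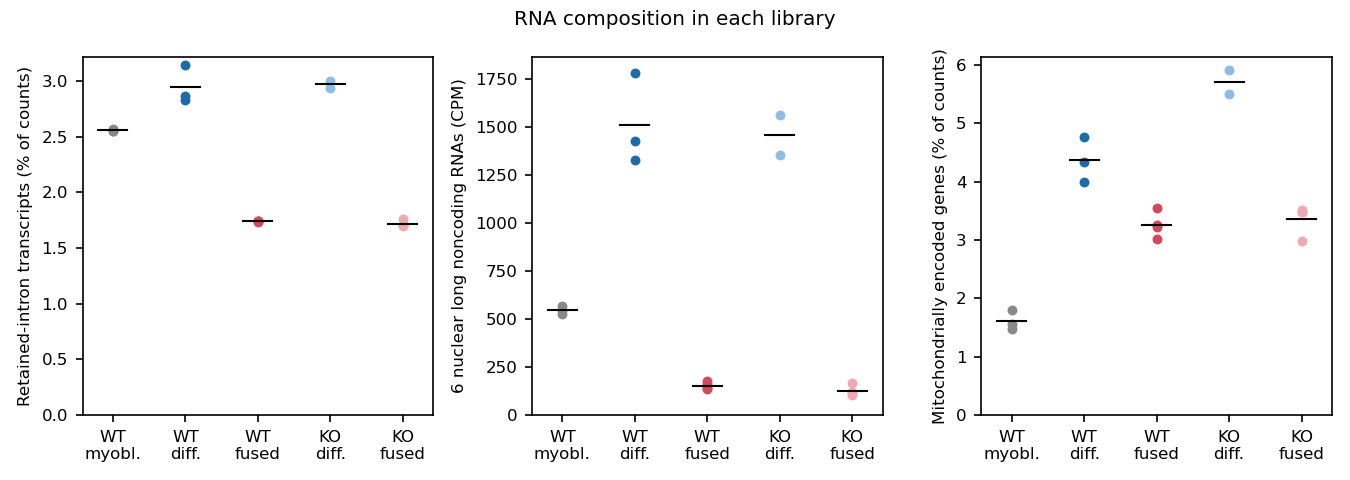
Retained-intron transcripts (percent of counts), the summed CPM of 6 nuclear long noncoding RNAs and mitochondrially encoded genes (percent of counts), with 1 point per library and bars at group means. All 3 measures were lower in each WT fused library than in each WT differentiated library, and the libraries labelled Glud1KO (KO on the axis) lay in the same order.

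Among the myogenic regulators, Myog and Myod1 fell and Myf6 and Mef2c rose. Of 28 tested, 10 rose and 14 fell, with a median of -0.30. Myog, the factor that commits cells to terminal differentiation, measured 2494, 2364 and 2578 CPM in differentiated and 829, 865, 895 and 953 CPM in fused libraries (-1.49 ± 0.06, edgeR adjusted p = 4.6e-18). Myod1, which opens the muscle programme, went from 869, 769.8 and 804 CPM to 284, 297, 302 and 311 CPM (-1.45 ± 0.05). Both were lower in every fused library. Myf6, the member of this family that is most abundant in adult fibres, rose from 31.3, 29.0 and 31.5 CPM to 141, 146, 139 and 135 CPM (2.19 ± 0.05, edgeR adjusted p = 7.3e-23). Myf5, usually a mark of activated precursors, rose as well, from 67.8, 63.5 and 58.5 CPM to 125, 128, 129 and 118 CPM, above the mean of the myoblasts (83.2 CPM).

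Partners and repressors of this family changed as well. Mef2c, which acts with the Myod1 family on sarcomere genes, rose from 1045 to 2267 CPM (1.12 ± 0.05). Sox6, a repressor of slow-fibre genes, rose by 1.52 and Nfix, a switch from embryonic to fetal muscle genes, by 1.02 on the log2 scale. The Id proteins bind and block the partners of Myod1. Id1, Id2 and Id3 fell (log2 changes of -2.07, -1.78 and -2.46), with Id3 at 119, 103 and 105 CPM before and 18.8, 20.9, 19 and 20.6 CPM after. Pax7, the marker of satellite cells, fell from 10.2, 10.4 and 11.3 CPM to 4.11, 4.19, 3.33 and 2.80 CPM (-1.58 ± 0.12). Of 24 Notch and satellite cell genes tested, 14 fell and 7 rose. Notch1 and Notch3, receptors that hold satellite cells undifferentiated, fell (log2 changes of -1.68 and -3.10), while the Notch target Hes1 rose by 1.21. Sdc4 and Spry1, both known from satellite cells, rose by 0.73 and 0.59, and the Notch ligand Dner by 0.35.

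**Figure D2:**
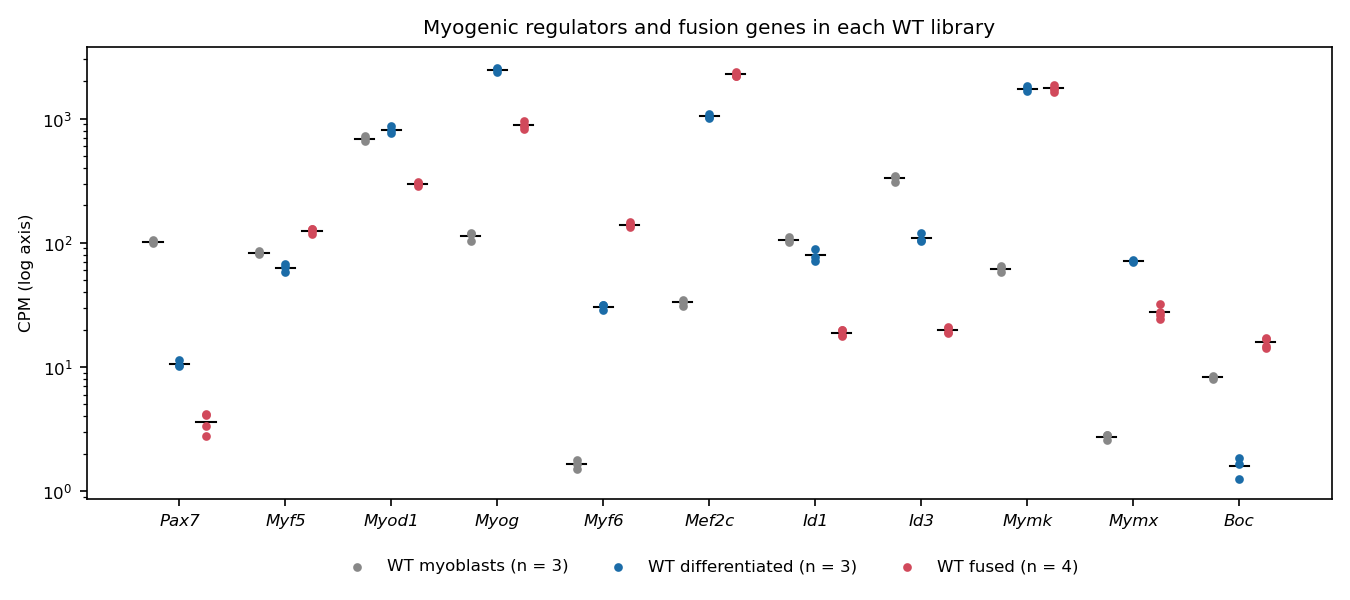
CPM on a log axis of 11 genes in each WT library, by stage, with bars at group means. Myog and Mymx peak in the differentiated libraries, Myf6 and Mef2c are highest in the fused libraries, and Mymk is level between them.

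The fusion genes did not rise as a group between 48 h and 72 h. Of 33 tested, 7 rose and 18 fell (median -0.21). Mymk, which encodes Myomaker (chromosome 2, 27061636 to 27072179, GRCm38), measured 1659.5, 1754 and 1828 CPM in differentiated and 1635, 1729, 1761 and 1869 CPM in fused libraries. These ranges overlapped, and the change was 0.00 ± 0.05 (edgeR adjusted p = 0.99). Mymx, which encodes Myomixer (chromosome 17, 45600971 to 45602102), fell from 71.8, 72.1 and 69.8 CPM to 26.2, 24.4, 27.8 and 32.4 CPM (-1.35 ± 0.07, edgeR adjusted p = 2.9e-16). Its level in fused libraries was still above that of myoblasts, 2.74 CPM.

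Surface proteins of this list changed in both directions. Cdh2, the N-cadherin of myoblast contacts, fell from 691 ± 41.0 (n = 3) to 293 ± 18.3 CPM (SD, n = 4). Kirrel, a relative of the fly receptors of myoblast recognition, fell by 2.39 and Jam3, a junction protein, fell by 1.16. Boc, a co-receptor bound by cadherins, rose from 1.85, 1.26 and 1.65 CPM to 16.8, 14.7, 17.1 and 14.3 CPM (3.30 ± 0.11). Mrc1, Neo1 and Nfatc2 rose by 1.16, 0.82 and 0.81. Nfatc2 is a calcium-dependent factor of myotube growth.

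The myosin heavy chains, the motors of the thick filament, changed to unequal extents. The developmental and fast genes lie side by side on chromosome 11 (GRCm38), with Myh3 (embryonic) at 67078300 to 67102291, Myh2 (fast IIa) at 67171027 to 67197517, Myh1 (fast IIx) at 67200052 to 67224575, Myh4 (fast IIb) at 67238029 to 67260446 and Myh8 (neonatal) at 67277124 to 67308634. Their sequences are alike, so estimated counts can be exchanged between them. Myh4 had the largest rise of any gene named by the rule, from 6.83, 6.36 and 7.50 CPM to 590.2, 557, 568 and 448 CPM (6.28 ± 0.09, edgeR adjusted p = 7.9e-27). Myh2 rose from 15.7, 13.9 and 16.4 CPM to 253, 257, 284 and 309 CPM (4.16 ± 0.07). Both remained small parts of the whole.

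Myh1 rose from 4362, 4579 and 5289 CPM to 17788, 17572, 18262 and 17766 CPM and Myh8 from 1618, 1688 and 1945 CPM to 6822, 6683, 7166 and 7031 CPM. Myh3 measured 14720.0, 15609 and 18076 CPM and then 13719.9, 13097, 14183 and 14852 CPM. These ranges overlapped, and the fall of 0.21 ± 0.06 was called (edgeR adjusted p = 0.0023), but not without differentiated replicate 3 (edgeR adjusted p = 0.059). As shares of the summed TPM of 10 sarcomeric heavy chains (TPM is a level per transcript length), Myh3 fell from 68.0% ± 0.284 to 33.6% ± 0.956 (SD), Myh1 rose from 21.3% ± 0.182 to 46.2% ± 0.934 and Myh8 from 7.34% ± 0.0773 to 16.7% ± 0.142. Myh4 went from 0.0299% ± 0.00236 to 1.34% ± 0.179 and slow Myh7 from 3.06% ± 0.116 to 1.43% ± 0.186. The summed TPM was 6132, 6505 and 7530 in differentiated and 11210, 10500, 10990 and 11160 in fused libraries, so the falling share of Myh3 accompanied a higher total. The non-muscle heavy chains Myh9 and Myh10 fell (log2 changes of -1.29 and -0.60), and Myh14 rose by 1.61. Myh13 did not pass the test (edgeR adjusted p = 0.59).

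**Figure D3:**
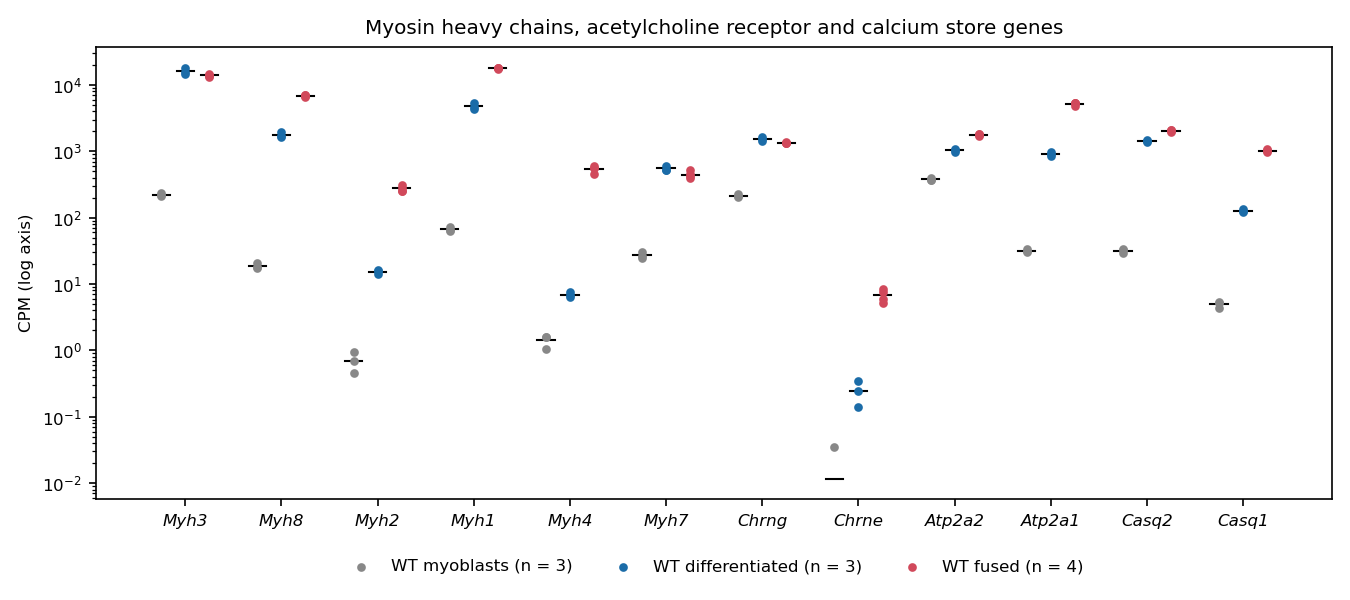
CPM on a log axis of 6 myosin heavy chains, the fetal and adult acetylcholine receptor subunits Chrng and Chrne, and 2 pairs of calcium store genes in each WT library, with bars at group means. Chrne was at 0 in 2 myoblast libraries, which the axis cannot show. Myh4, Myh2, Chrne and Casq1 rise most between the differentiated and fused libraries, while Myh3, Myh7 and Chrng stay level or fall.

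Troponins and tropomyosins, which make the thin filament respond to calcium, rose. Of 11 troponins and tropomyosins tested, 10 rose. The exception was Tpm4, a tropomyosin of non-muscle stress fibres, which fell from 64.5, 51.6 and 57.0 CPM to 8.63, 8.06, 2.28 and 5.36 CPM. Fast troponin I, Tnni2, rose from 169, 154 and 154 CPM to 695, 737, 744 and 653 CPM (2.16 ± 0.05), and its slow counterpart Tnni1 by 0.90. Fast troponin C, Tnnc2, rose by 1.59 and slow Tnnc1 by 0.22. Cardiac-type Tnnt2, expressed in embryonic muscle, rose by 0.27 and fast Tnnt3 by 1.0. Among the light chains, 5 of 12 rose and 5 fell. The sarcomeric Myl1 (1.40), Myl4 (0.89) and Mylpf (0.42) rose, and the non-muscle Myl6 (-1.58) and Myl9 (-2.15) fell. Myl12b fell as well, but 2 genes carry this symbol, and the more abundant was used.

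Tpm3 showed a change of transcripts under a rise of the gene (151 to 409 CPM). The transcript Tpm3-205 made up 10.1% of the gene's estimated counts in differentiated and 68.8% in fused libraries on average, and Tpm3-202 went from 34.2% to 5.92%. In both, the libraries of the groups did not overlap. In Pdlim5, a Z-disc gene chosen after its values were seen, Pdlim5-203 went from 41.1% to 75.1%. Pkm, the pyruvate kinase of glycolysis, shifted less, with Pkm-201 at 48.4% and then 39.4%, and Pkm-202 at 47.5% and then 58.1%. These shares rest on kallisto's division of shared reads and have no test.

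Thin-filament and Z-disc genes rose in their majority, but the giant proteins fell. Of 15 thin-filament genes tested, 11 rose and 2 fell. Of 38 Z-disc and M-band genes, 24 rose and 12 fell, where 37.4% of all genes rose. Acta1, the skeletal actin, measured 12222 ± 836 (n = 3) and 11949 ± 698 CPM (SD, n = 4), a change of -0.03 ± 0.07 that did not pass the test, while cardiac Actc1 fell by 0.36. Klhl41, which stabilises nebulin, rose by 1.5, and the leiomodin Lmod2, a nucleator of actin filaments, by 1.21. Within the Z-disc and M-band list, Myoz3, Myot, Mybpc2 and Myoz1 had the largest rises. Myot, a crosslinker of actin, went from 6.45, 5.31 and 5.88 CPM to 139, 141, 138 and 117 CPM (4.50 ± 0.08), Myoz3 rose by 4.56, Myoz1 by 3.43 and the fast myosin-binding protein Mybpc2 by 4.32.

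Ttn, the titin spring that spans the sarcomere from Z disc to M band, fell from 6711, 6285 and 6439 CPM to 2022, 1684, 2245 and 2340.4 CPM (-1.64 ± 0.09, edgeR adjusted p = 1.0e-14). Neb, the ruler of the thin filament, fell from 1877, 1929 and 1919 CPM to 879, 755, 939 and 1096 CPM (-1.06 ± 0.10). Both encode very long messenger RNAs. Among genes with a mean of at least 5 CPM, the median log2 change was 0.18 in the fifth with the shortest transcripts and -0.08 in the fifth with the longest, and its part in these falls was not tested. The strain-sensing Ankrd2 fell from 52.7, 55.6 and 59.0 CPM to 5.62, 6.34, 6.29 and 7.50 CPM (-3.11 ± 0.08) and its relative Ankrd1 fell by 1.11. Des, the intermediate filament that ties Z discs together, rose from 2941 to 5328 CPM.

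The genes of excitation-contraction coupling, which turn a membrane signal into calcium release, rose in 30 of 39 cases and fell in 6 (median 0.61). The largest rises were those of Pvalb, Casq1, Kcna7, Clcn1 and Atp2a1. Casq1, the calcium store protein of fast fibres, rose from 121, 126 and 136 CPM to 1013, 1065, 1047 and 963 CPM (3.00 ± 0.05, edgeR adjusted p = 3.8e-26). Atp2a1, the fast-fibre calcium pump, rose from 851, 908 and 979 CPM to 5335, 5269, 5330.1 and 4863 CPM (2.51 ± 0.05). Pvalb, the calcium buffer of fast fibres, was still low at 10.5, 9.90, 10.3 and 7.50 CPM, from 1.42, 1.0 and 0.880 CPM. The slow-fibre counterparts moved less, with Casq2 at 0.50 and Atp2a2 at 0.78.

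The release channel itself went the other way. Ryr1, the calcium release channel, fell from 1214, 1349 and 1256 CPM to 1009, 914, 1041 and 1103 CPM (-0.32 ± 0.06). Jph2, which organises the contact between membrane and store, and the coupling gene Stac3 fell (log2 changes of -0.38 and -0.39). Itpr1, the release channel of non-muscle stores, fell by 1.01. The chloride channel Clcn1 rose from 1.40 to 9.43 CPM and the potassium channel Kcna7 from 1.45 to 9.89 CPM. The pump inhibitor Sln rose by 1.56 from a low level (1.19 CPM), and Mrln did not pass the test (-0.18 ± 0.10, edgeR adjusted p = 0.11), except with library size only (-0.24, edgeR adjusted p = 0.032).

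At the neuromuscular junction, 8 of 16 genes rose and 6 fell. These cultures hold no motor neuron by their labels. Chrne, the receptor subunit of the adult junction, rose from 0.142, 0.348 and 0.246 CPM to 7.63, 8.50, 5.86 and 5.19 CPM (4.73 ± 0.26), resting on 3, 8 and 7 counts before and 167, 134, 95 and 126 after. Chrng, the fetal subunit it replaces, measured 1439.5, 1548 and 1633 CPM and then 1339, 1335, 1391 and 1337 CPM (-0.19 ± 0.05). The adult subunit made up 0.76% of the pair's summed TPM in fused libraries, from 0.03%. Ache, the esterase that ends the signal, rose from 10.3, 9.23 and 8.06 CPM to 115, 116, 111 and 80.0 CPM, and Colq, its anchor, by 1.02. Etv5, a factor of synaptic nuclei, rose by 2.62. The clustering genes Agrn, Lrp4, Dok7 and Rapsn fell (log2 changes of -1.12, -0.92, -0.82 and -0.26). Musk and Chrna1 did not pass the test (edgeR adjusted p = 0.064 and 0.43), but Musk was called without differentiated replicate 3 (0.11, edgeR adjusted p = 0.020).

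Promoter sequence is shown for 4 of these genes because Myod1-family proteins bind E boxes. The windows are the bases just before the RefSeq start site (GRCm38.p6), 5′ to 3′, with the E box CAGCTG in capitals. This motif reads the same on both strands. It lies within 250 bases before the start in 14.8% of the 11127 tested genes with a promoter in the table, and in 10 of 23 genes of excitation-contraction coupling and 6 of 12 of the junction. It was found in 19.2% of the genes that rose at least 2-fold and in 17.5% of those that fell as far. A match is a description of the sequence, not of binding.
Chrne (chr11:70619195-70619394, minus strand): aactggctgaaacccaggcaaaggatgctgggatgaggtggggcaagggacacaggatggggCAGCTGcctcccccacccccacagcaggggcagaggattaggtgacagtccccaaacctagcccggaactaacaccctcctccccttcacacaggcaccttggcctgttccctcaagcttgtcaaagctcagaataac
Chrng (chr1:87205611-87205810, plus strand): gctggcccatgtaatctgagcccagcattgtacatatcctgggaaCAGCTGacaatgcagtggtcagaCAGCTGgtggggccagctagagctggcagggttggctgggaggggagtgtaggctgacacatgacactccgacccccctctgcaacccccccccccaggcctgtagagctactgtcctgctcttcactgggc
Casq1 (chr1:172219896-172220095, minus strand): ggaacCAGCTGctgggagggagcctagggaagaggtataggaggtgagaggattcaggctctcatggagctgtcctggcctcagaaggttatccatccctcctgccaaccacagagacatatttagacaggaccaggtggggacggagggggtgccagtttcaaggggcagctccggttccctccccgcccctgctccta
Atp2a1 (chr7:126463074-126463193, minus strand): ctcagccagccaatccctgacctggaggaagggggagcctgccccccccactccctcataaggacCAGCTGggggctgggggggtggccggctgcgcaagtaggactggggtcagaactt
The subunits Chrne and Chrng, which moved apart, both hold the motif, Chrng at 2 places and Chrne at 1. In Atp2a1 it begins 55 bases before the start site.

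Among the genes that tie the sarcomere to the membrane, 13 of 26 rose and 9 fell. Utrn, the homologue that precedes dystrophin at the membrane, fell from 493, 520.1 and 526 CPM to 252, 226, 252 and 292 CPM (-1.0 ± 0.06). Dmd, dystrophin, rose from 195 to 226 CPM (0.21 ± 0.07, edgeR adjusted p = 0.0089). This call was lost with an offset for effective transcript length (0.02, edgeR adjusted p = 0.86), with DESeq2 (adjusted p = 0.094) and with scaling by library size only (edgeR adjusted p = 0.082). Sgcd, a sarcoglycan, rose from 1.28, 1.26 and 1.16 CPM to 14, 12.8, 13.4 and 14.5 CPM, and Sgce, a sarcoglycan of many tissues, fell by 1.24. Vcl, vinculin, fell by 0.64.

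The actin cytoskeleton of motile cells fell. Of 31 genes tested, 27 fell and 2 rose, with a median of -1.25. Tagln, an actin-binding protein best known from smooth muscle, went from 169, 145 and 162 CPM to 2.42, 2.22, 2.47 and 1.81 CPM (-6.17 ± 0.08, edgeR adjusted p = 9.6e-28). Of the 9 tested markers of smooth muscle and pericytes given above, 3 rose and 4 fell, and their part in this fall was not tested. Flna, the filamin that crosslinks actin (chromosome X, 74223461 to 74249820), went from 391, 354 and 401 CPM to 11.6, 8.57, 9.19 and 10.8 CPM (-5.23 ± 0.07). The non-muscle actins Actb and Actg1 fell from 603 to 92.6 and from 480.0 to 68.5 CPM. Both had already been lower at 48 h than in myoblasts (4701 and 3246 CPM). Cfl2, the muscle cofilin, and Ezr rose by 0.75 and 0.56.

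Serum response factor controls many actin genes through the CArG box, and its sequence is shown in capitals for 5 genes picked for their different changes. Of the 11127 promoters, 1.47% hold a CArG box on either strand within 250 bases, as do 3 of 26 of the non-muscle actin cytoskeleton and 3 of 12 of the thin filament. It was found in 1.57% of the promoters of genes that rose at least 2-fold and in 1.90% of those that fell as far.
Actg1 (chr11:120348496-120348615, minus strand): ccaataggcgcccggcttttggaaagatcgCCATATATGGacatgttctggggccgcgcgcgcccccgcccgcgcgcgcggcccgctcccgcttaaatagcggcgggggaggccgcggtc
Cnn2 (chr10:79988480-79988599, plus strand): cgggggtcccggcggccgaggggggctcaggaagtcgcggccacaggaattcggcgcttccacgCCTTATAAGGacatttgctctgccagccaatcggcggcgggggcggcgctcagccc
Acta1 (chr8:123894776-123894895, minus strand): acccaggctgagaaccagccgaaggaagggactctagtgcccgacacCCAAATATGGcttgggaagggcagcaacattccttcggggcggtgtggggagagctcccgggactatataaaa
Actc1 (chr2:114052876-114052995, minus strand): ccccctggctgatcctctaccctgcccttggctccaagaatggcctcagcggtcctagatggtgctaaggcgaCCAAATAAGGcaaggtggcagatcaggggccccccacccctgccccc
Myh4 (chr11:67237692-67237811, plus strand): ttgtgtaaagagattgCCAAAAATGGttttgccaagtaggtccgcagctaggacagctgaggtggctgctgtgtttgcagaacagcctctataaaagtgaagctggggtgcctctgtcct
Cnn2, a calponin, fell by 3.71 and Actg1 fell by 2.81, Acta1 did not pass the test, Actc1 fell by 0.36 and Myh4 rose by 6.28.

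Collagen genes fell in 11 of 18 cases and rose in 3 (median -1.56). Col4a1, a chain of basement membrane, fell from 142, 139 and 172 CPM to 16.4, 15.9, 16.0 and 15.4 CPM and Col5a2, of fibrils, from 305 to 34.9 CPM. Col8a1 fell by 4.46. Col25a1, a membrane collagen that motor axons need to enter muscle, rose from 127, 125 and 131 CPM to 303, 313, 316 and 314 CPM (1.29 ± 0.04). Col1a1 was near 1 CPM or below in every library and did not pass the test.

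Mitosis genes fell further. Of 44 mitosis genes tested, 41 fell and 1 rose (median -2.05). Mki67, the proliferation marker, had 101, 94 and 144 counts in differentiated and 6, 0, 1 and 4 counts in fused libraries, that is 4.79, 4.09 and 5.07 CPM and 0.274, 0, 0.0617 and 0.165 CPM. Top2a, the topoisomerase of chromosome condensation, went from 161, 140 and 246 to 12, 7, 6 and 9 counts. The level in myoblasts was 199 CPM for Mki67 and 393 CPM for Top2a, so most of the decline came before 48 h. The gene that rose was Racgap1, a regulator of cell division, at 0.18 ± 0.07, with overlapping libraries. It was not called with DESeq2, with library size only, in the 7 libraries alone, or without differentiated replicate 1 or fused replicate 3 (0.11 to 0.15).

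Replication genes were divided. Of 44 tested, 24 fell and 12 rose. Rrm1 and Rrm2, the subunits of the reductase that makes deoxyribonucleotides, fell from 212 to 80.6 and from 61.6 to 15.1 CPM, whereas the polymerase subunit Pold1 rose by 0.89 and the flap nuclease Fen1 by 0.51. Cdkn1a, the p21 inhibitor that keeps myotubes out of the cycle, rose by 0.32 to 3640.3, 3792, 3913 and 3996 CPM. The inhibitors Cdkn1b and Cdkn2d rose by 0.97 and 1.20, while Cdkn1c fell by 1.28 and Gadd45g fell by 2.05. Ccnd1 and Cdk6, which drive entry into the cycle, fell (log2 changes of -2.12 and -2.27).

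Nuclear genes of energy metabolism rose together. Of 36 nuclear-encoded subunits of respiratory complex I tested, 36 rose, by 0.54 to 1.36 on the log2 scale (median 0.88), against 37.4% of all genes. Ndufv1, which binds NADH, went from 146, 138 and 147 CPM to 370.3, 376, 387 and 341 CPM. In complexes II to V, 40 of 42 rose (median 0.92). The 2 that fell were Cox6a1 (-0.71) and Cox8a (-0.66), whose muscle forms Cox6a2 (2.15) and Cox8b (1.12) rose. Ppargc1a, a coactivator of mitochondrial genes, rose from 19.8, 20.4 and 22.3 CPM to 58.3, 54.9, 56.9 and 55.9 CPM (1.44 ± 0.05).

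The genes of the mitochondrial genome, which encode the other subunits of the same complexes, did not follow. Of 13 tested, 11 fell and 1 rose (median -0.45). They took 4.00%, 4.77% and 4.33% of all counts before and 3.03%, 3.27%, 3.22% and 3.55% after, and 1.48% to 1.80% in myoblasts. mt-Cytb, cytochrome b of complex III, fell from 4354, 5359.9 and 4959 CPM to 2328, 2565, 2579.5 and 2946 CPM (-0.91 ± 0.08). mt-Nd3 rose (0.32 ± 0.05), and mt-Co1 did not pass the test (edgeR adjusted p = 0.077), although it was called lower under 8 alternatives (-0.21 to -0.13). These RNAs belong to the composition shift given above, and its part was not tested.

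Fuel pathways rose with the nuclear respiratory genes. In the TCA cycle and pyruvate entry, 30 of 33 rose. The 2 largest rises were in kinases that restrain pyruvate entry, Pdk2 from 44.7, 49.7 and 49.0 CPM to 225, 229, 229.8 and 211 CPM and Pdk4 from 29.5 to 127 CPM, and the opposing phosphatase Pdp1 rose by 1.71. Me1, the cytosolic malic enzyme, fell by 1.38. In fatty acid uptake and oxidation, 30 of 36 rose (median 0.99), among them the fatty acid carrier Cd36 from 26.8, 26.0 and 25.9 CPM to 112, 115, 105 and 124 CPM. Cpt1b, the muscle gate of fatty acid import into mitochondria, rose by 2.11, and its liver form Cpt1a fell by 1.67.

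In glycolysis, glycogen and glucose transport, 32 of 42 rose and 7 fell. Hk2, the muscle hexokinase, went from 30.9, 32.4 and 35.6 CPM to 111, 111, 112 and 109.7 CPM. Gpd1, of the glycerol phosphate shuttle, rose from 1.99 to 28.4 CPM and Ldhb by 2.48. Slc2a4, the insulin-responsive glucose carrier, rose by 1.64, while Slc2a1, the carrier of dividing cells, fell by 0.45. Among 13 genes of creatine, adenylate and oxygen buffering, 10 rose. Ckmt2, the mitochondrial creatine kinase of muscle, went from 7.59, 6.70 and 7.11 CPM to 150.1, 147, 142 and 107 CPM (4.25 ± 0.10), and Mb, myoglobin, from 238 to 674 CPM. Gatm, which makes the creatine precursor, fell by 1.78.

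The balance between family members shifted in these groups. In 18 pairs of a muscle, fast or adult gene with a paralog, chosen from textbook knowledge with the values of some known, the share of the first gene in the pair's summed TPM was higher in each fused library than in each differentiated library. By mean TPM, the first gene was higher and its partner lower in 10 pairs, both were higher in 7, and both were lower in the pair of Acta1 and Actc1. Among the 10, Cox6a2 went from 26.1% ± 0.696 to 72.0% ± 0.142 (SD), Ckm, the muscle creatine kinase, from 39.9% ± 1.71 to 85.2% ± 1.38, and Cpt1b from 28.2% ± 3.35 to 80.4% ± 8.47. Where both rose, the share of Atp2a1 over Atp2a2 went from 53.7% ± 1.05 to 78.7% ± 0.432 and that of Casq1 over Casq2 from 7.69% ± 0.0590 to 30.9% ± 1.79. The steps were small in pairs already near an end, as in Pygm, the muscle glycogen phosphorylase (98.9% ± 0.114 to 99.3% ± 0.0930). In the libraries labelled Glud1KO, which share none with the WT comparison, Cox6a2 went from 34.8% to 75.0% (SD 1.08 and 0.968, n = 2 and 4) and Ckm from 39.7% to 79.7% (SD 0.895 and 1.04).

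**Figure D4:**
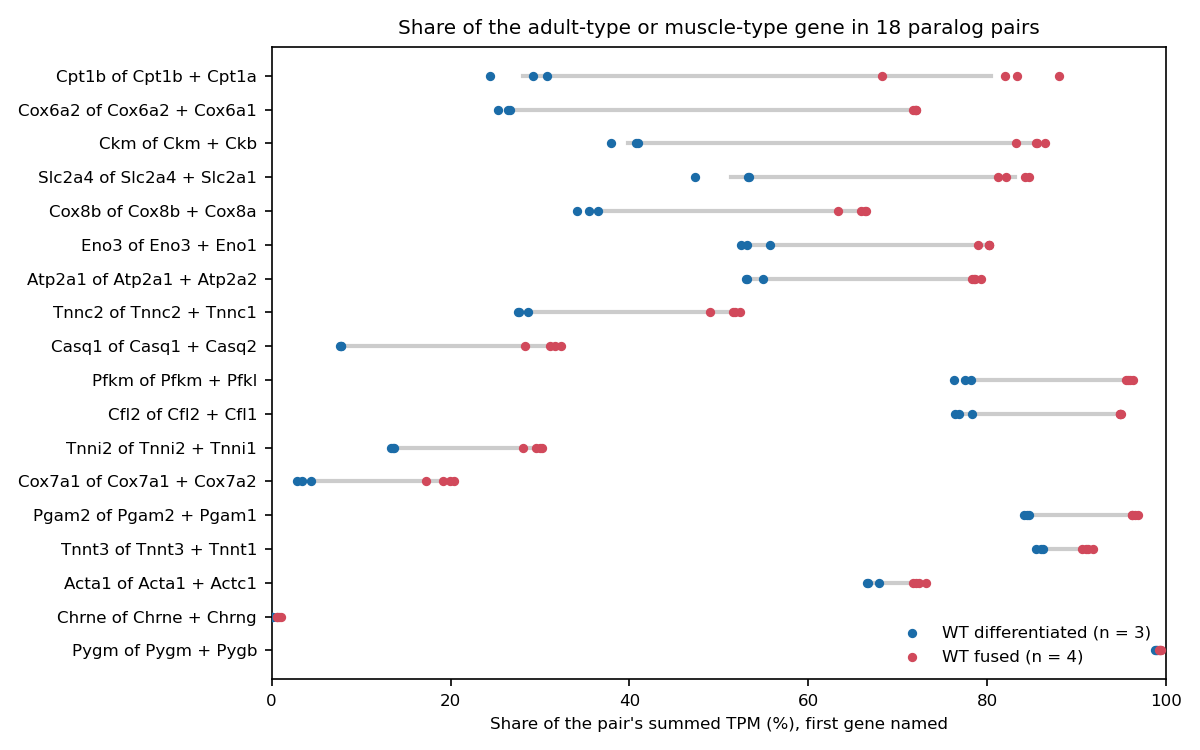
Share (%) of the first-named gene in the summed TPM of 18 paralog pairs, with 1 point per WT library and a line between group means. The fused libraries lie to the right of the differentiated libraries in all 18 pairs, and the step is widest for Cpt1b, Cox6a2 and Ckm.

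Glud1 (chromosome 14, 34310727 to 34345265, GRCm38) rose by 0.35 ± 0.04 between the WT groups (edgeR adjusted p = 5.9e-09) and by 0.42 under the Glud1KO label (interaction -0.06 ± 0.06, edgeR adjusted p = 0.54). Both WT levels were below the myoblasts' 189 CPM, as were those under the Glud1KO label (myoblasts 187 CPM). Of 23 genes of glutamate metabolism and the aspartate-malate shuttle, 11 rose and 6 fell. The transaminases rose more than the dehydrogenase, Got1 from 107, 106 and 112 CPM to 365, 381, 389 and 348 CPM, Got2 from 258 to 579.5 CPM and Gpt by 2.43, with the carrier Slc25a12 at 1.45. The glutamine importer Slc1a5 fell by 0.65.

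Sterol synthesis fell almost throughout. Of 30 genes tested, 27 fell and 1 rose (median -0.81). Lss, which closes the sterol ring, fell from 96.8, 95.3 and 107 CPM to 26.8, 31.2, 30.7 and 29.1 CPM, and the squalene synthase Fdft1 fell by 1.31. The exception was Dhcr7, of the last step, which rose from 64.1, 73.1 and 73.4 CPM to 168, 178, 173 and 183 CPM.

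Growth factor genes changed as well. Of 17 tested in the insulin-like growth factor list, 5 rose and 12 fell. Of 26 tested in the list of myostatin, follistatin and TGF-beta signalling, 8 rose and 13 fell. Igf2, an insulin-like growth factor that myotubes secrete, fell from 6329, 6598 and 7022 CPM to 3062, 3256, 3353 and 3565 CPM (-1.01 ± 0.06) and Igf1 from 16.2, 19.3 and 19.3 CPM to 1.46, 1.40, 1.30 and 2.31 CPM (-3.45 ± 0.13). Their binding protein Igfbp5 rose from 602 to 2419.7 CPM. Mstn, myostatin, the inhibitor of muscle growth, fell by 0.59. Fstl1, a secreted follistatin-like protein, fell from 29.0, 22.7 and 27.5 CPM to 0.731, 0.634, 0.925 and 0.907 CPM. Of 18 FoxO and atrophy genes, 13 rose, with the muscle ligases Fbxo40 at 2.28, Fbxo32 at 0.29 and Trim63 at 0.16.

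Ranked by size alone, the 12 largest rises with a proper symbol and at least 10 CPM were Myh4, Cd24a, Abcd2, Egr3, Gabrd, Pacsin1, Ndrg2, C1ql3, Tgm2, Myoz3, Myot and Ddit4l. Cd24a, a surface glycoprotein, went from 3.70, 4.79 and 4.26 CPM to 219, 230.0, 204 and 149 CPM (5.55 ± 0.14), while its level in myoblasts was 3.99 CPM. Egr3, an immediate early factor needed for muscle spindles, went from 0.664, 1.39 and 1.62 CPM to 56.9, 51.3, 55.6 and 62.4 CPM. Abcd2 imports very long fatty acids into peroxisomes and rose by 5.54. Gabrd and C1ql3, known from neurons, rose by 5.33 and 4.69. Pacsin1, Ndrg2, Tgm2 and Ddit4l rose by 4.89, 4.88, 4.65 and 4.49.

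The 12 largest falls were Meg3, Tagln, Flna, Fstl1, Spaca6, Col8a1, Cpne4, Gfra1, Ptgis, Rsrp1, Rad51ap1 and Cmah. Meg3, a maternally expressed long noncoding RNA, went from 38.7, 48.8 and 39.7 CPM to 0.731, 0.508, 0.493 and 0.453 CPM (-6.25 ± 0.16), after 1.33 CPM in myoblasts. Rsrp1, a gene of a serine and arginine rich protein, went from 168, 187 and 149 CPM to 12, 7.87, 9.0 and 10.1 CPM, after 31.9 CPM in myoblasts. Both, with Spaca6 (-4.77), Cmah (-3.95) and Ptgis (-4.15), were highest at 48 h. Cpne4, Gfra1 and Rad51ap1 fell (log2 changes of -4.27, -4.26 and -4.07).

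**Figure D5:**
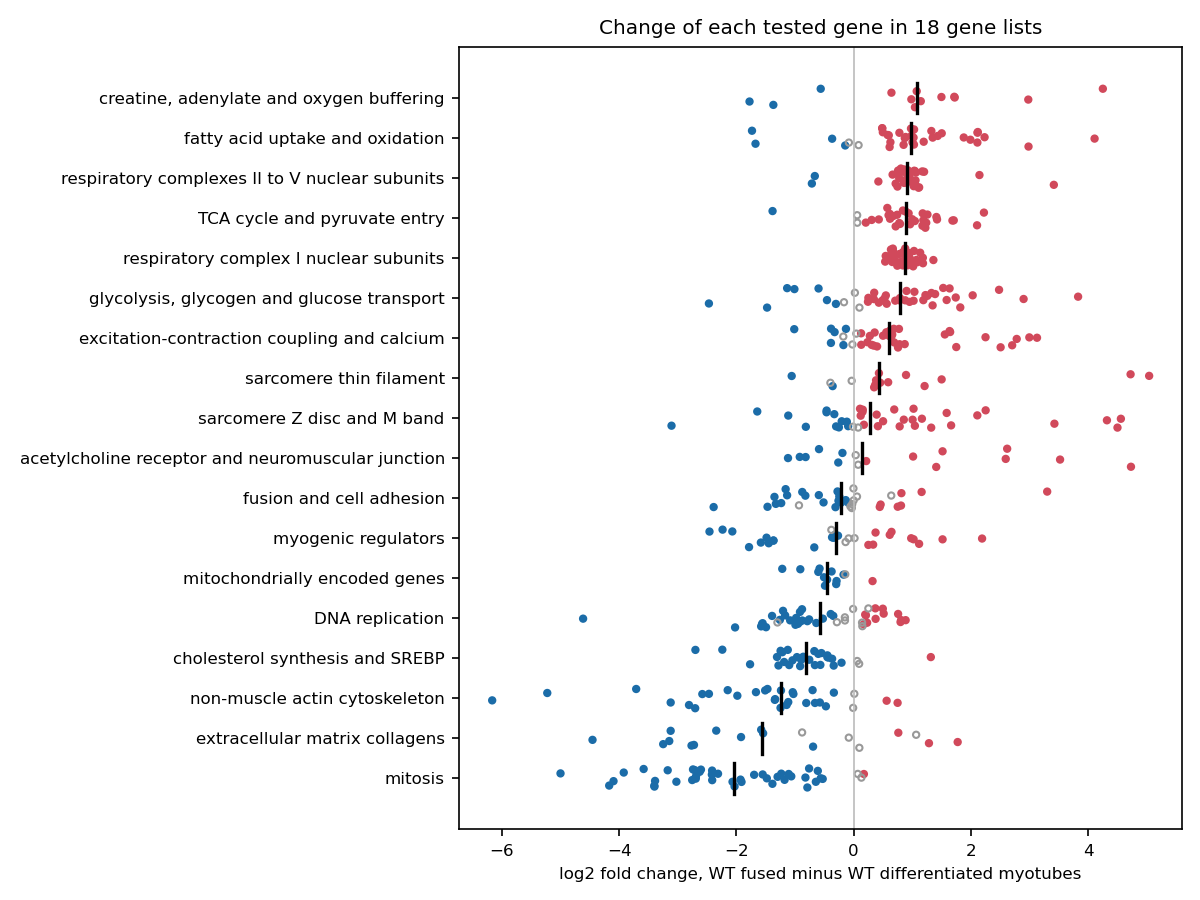
Log2 fold change of each tested gene in 18 lists, with called genes in red (higher in fused) or blue (lower), genes not called as open circles and list medians as bars. The nuclear-encoded energy metabolism lists lie to the right, with medians from 0.79 to 1.08, and mitosis, collagens and the non-muscle actin cytoskeleton lie farthest to the left.

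The same step was compared in the libraries labelled Glud1KO, whose Glud1 level did not differ from WT in the test given above, through an interaction term, which tests whether the change differed between the labels. It was called in 2238 of 15123 genes (14.8%), 987 with the more positive change in WT and 1251 with the more negative. With scaling by library size only, the split was 554 and 1663, and with an offset for effective transcript length 978 genes were called. Under the WT and Glud1KO labels, the change was, in this order, for Myh4 6.28 and 6.35 (interaction -0.06 ± 0.19, edgeR adjusted p = 0.87) and for Casq1 3.00 and 2.96 (interaction 0.04 ± 0.07, edgeR adjusted p = 0.79). Among the list members and the 12 largest rises and falls, the genes with the smallest interaction p were Col4a1, Gbp6, Ccnd1, Col4a2, Gbp4 and Mthfd2. Genes outside these were not ranked. Ccnd1 fell in WT and changed by 0.21 under the Glud1KO label (interaction -2.34 ± 0.14, edgeR adjusted p = 6.0e-12). Col4a1 and Col4a2 changed by -3.25 and -1.92 in WT, and by -1.31 and -0.23 under the Glud1KO label. Gbp6, an interferon-induced GTPase, rose in WT from 230.2, 225 and 227 CPM to 783, 803, 751 and 794 CPM, a log2 change of 1.78 against 0.18 under the Glud1KO label. Gbp4 changed by -0.56 and -2.68, and Mthfd2, of mitochondrial folate metabolism, by 0.09 and 0.83. The call of the WT change of Mthfd2 was lost in 14 of 16 alternatives, at 0.02 to 0.11.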

How the data were processed

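The libraries were made from polyadenylated RNA, per the labels' protocols. Estimated counts (expected counts), TPM and effective lengths per transcript were deposited by the authors as kallisto output, per the file headers. The submitters' processing notes name bcl2fastq 2.20, fastp 0.20.0, kallisto 0.46.1, edgeR 3.36 and GRCm38.p6. Of 121843 transcripts, 121018 matched GENCODE M21. Their counts were summed to 35598 genes and rounded. The 825 others, 0.25% to 0.51% of the counts, were left out. Where genes share a symbol, the most abundant was used. Summed CPM of marker lists and nuclear RNAs are relative to the total count, without scaling.

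All 19 libraries in 6 groups were fitted with edgeR 4.0.16 (R 4.3.3; TMM scaling, filterByExpr, quasi-likelihood test, Benjamini-Hochberg adjustment). DESeq2 1.42.0, other scalings, filters, a length offset, a replicate block and leaving out replicates were alternatives. Libraries of a group differed by more than sampling noise (chi-square per degree of freedom 2.31 to 7.68). Named genes are the 12 largest rises and falls (at least 10 CPM, no overlap), all members of lists of up to 20 genes, and up to 4 rises and 4 falls of longer lists (at least 5 CPM). Added to these were key genes and the 6 smallest interaction p among the list members and the 12 largest rises and falls. A few others (such as paralog partners and genes shown for their transcripts) were chosen after their values were seen. The members and lists were chosen with earlier results of these data known. Promoter sequences are from RefSeq (GRCm38.p6). The fits were tested on simulated data.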

Additional observations from a re-analysis of the deposited data

Results flagged for a closer look

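In 73 of the 203 genes named here, the change from differentiated to fused myotubes differed between the WT and Glud1KO labels (interaction term, edgeR adjusted p under 0.05), where 14.8% of all genes tested were called. The named genes include 6 taken for their smallest interaction p and the largest WT changes, so their count is fixed in part by this choice and nothing is read from it. The values below are the WT change minus the Glud1KO change on the log2 scale. A value can come from a different level at 48 h, at 72 h or at both. Single interactions were not followed under the alternatives, where the count over all genes fell from 2238 to 978 with the length offset. Some lie near the threshold, such as that of Col8a1 (edgeR adjusted p = 0.0499). In 7 of the 73 genes, Ccnd1 among them, the change had opposite signs under the labels. This count did not require either change to be called. The WT changes of Mymk and Musk and the Glud1KO change of Dmd, all among the 7, were not called. Genes of the actin and tubulin cytoskeleton had Flna (-1.02), Actg1 (-0.66), Actb (-0.55), Cnn2 (-0.59), Ezr (-0.43), Myl9 (-1.12), Tubb5 (-0.61), Cfl2 (0.24) and Myh10 (-0.30). Actb and Actg1 were already lower under the Glud1KO label at 48 h (means of 338 and 223 CPM, against 603 and 480 CPM in WT). Their means at 72 h were 76.2 and 50.4 CPM, against 92.6 and 68.5 CPM in WT. Collagens and other matrix and membrane genes had Col4a1 (-1.94), Col4a2 (-1.69), Col5a2 (-0.67), Col8a1 (-1.44), Fstl1 (-2.33) and Sgce (-0.69). Cell cycle genes had Top2a (-2.38), Ccnd1 (-2.34), Cdk6 (-0.60), Racgap1 (-0.56) and Rrm2 (-0.36), with Top2a resting on few counts in the WT fused libraries. Myogenic and Notch genes had Myod1 (-0.42), Id1 (-0.39), Id3 (-0.79), Pax7 (-0.72), Hes1 (-0.83) and Nfix (0.19), and fusion genes had Mymk (0.28), Mymx (0.54) and Kirrel (-0.90).

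Sarcomere genes had Tnnc1 (0.33), Tnnc2 (0.29), Tnni1 (0.29), Tnnt2 (0.39), Tnnt3 (0.40), Tpm3 (0.43), Myl1 (0.34), Myh2 (-0.45), Klhl41 (0.36) and Lmod2 (0.46). Calcium and channel genes had Atp2a1 (0.32), Clcn1 (1.01), Mrln (0.79), Sln (-1.06) and Stac3 (0.25). Genes of the junction and costamere had Ache (-0.63), Etv5 (-0.39), Lrp4 (-0.33), Musk (0.17), Chrng (0.32) and Dmd (0.36). Metabolic genes had Cox6a2 (0.30), Cox8b (0.38), mt-Co1 (0.47), Pdk2 (0.24), Pdk4 (-0.30), Me1 (-0.39), Got1 (0.31), Hk2 (0.25), Ldhb (0.24), Pygm (0.35), Mb (0.46) and Mthfd2 (-0.74). The remaining values were those of Ddit4l (-1.16), Cpne4 (-1.07), Igfbp5 (-0.41), Mcam (-0.32), Hspb7 (0.31), Trim63 (0.37), Fbxo40 (0.41), Egr3 (0.86), Gabrd (1.06), Gbp6 (1.6) and Gbp4 (2.12).

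Single fused libraries stood apart from the other 3 in 20 of 225 sets of 4 values, by Dixon's ratio, where chance gives about 1 in 20. Fused replicate 4 was the library in 11 of them. It was lowest for Abcd2 (11.2 CPM against 14.4 to 14.8), Ache (80.0 CPM against 111 to 116), Atp2a1 (4863 CPM against 5269 to 5335), Ddit4l (71.6 CPM against 97.4 to 102), Myot (116 CPM against 138 to 141), Sox6 (32.5 CPM against 35.9 to 36.5), Cox8b share (63.3% against 65.9 to 66.5%) and Eno3 share (78.9% against 80.2 to 80.2%). It was highest for Cdh2 (321 CPM against 283 to 285), Gbp4 (45.7 CPM against 36.2 to 37.0) and Igf1 (2.31 CPM against 1.29 to 1.46). Replicate 1 stood apart for Actc1 (4704 CPM against 5184 to 5215), Gadd45g (30.6 CPM against 32.5 to 32.9), Mrln (8.08 CPM against 9.74 to 9.77) and Stac3 (246 CPM against 233 to 234). Replicate 2 stood apart for Fen1 (8.18 CPM against 9.87 to 10.1), Kirrel (2.47 CPM against 3.42 to 3.58) and Cfl2 share (95.0% against 94.9 to 94.9%). Replicate 3 stood apart for Chrng (1391 CPM against 1335 to 1339) and Myl12b (154 CPM against 121 to 126).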

How the results depend on the processing

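The count of 11357 genes called stayed within 1.5 times under every alternative run, and was 10836 to 11095 without 1 replicate. The count for the interaction (2238) fell to 978 with an offset for effective transcript length, and the cause was not tested. Same-numbered libraries did not deviate together (r = -0.058, -0.022 and 0.002), so the numbers are not taken as a pairing. With the replicate number as a block, 10590 of 14315 genes were called in the WT libraries, against 10878 without it, an alternative chosen after seeing the data. Of 3244 values of the 203 named genes under an alternative, 3185 kept their direction and their side of the threshold, and 20 turned their sign, all in genes not called. Mymk measured -0.0247 with DESeq2, -0.0248 with its size factors, -0.0054 with the length offset, -0.0678 with library size only, -0.0221 with a minimum of 1 CPM, -0.0056 and -0.0389 in the WT libraries without and with the block, and -0.0241 in the 7 libraries alone. Chrna1 measured -0.0321 with library size only, Col1a1 0.2554 with the block and Myh13 -0.0598 with the length offset. Without 1 replicate, Mymk ranged from -0.042 to 0.0343, Chrna1 from -0.0005 to 0.0644, Col1a1 from -0.5229 to 0.4596 and Acta1 from -0.0661 to 0.0247. Of 1440 counts of called genes per list, 1408 stayed within 1.5 times. The 32 others were counts of at most 5 genes, except for the cytosolic ribosomal proteins with library size only (10 rose and 23 fell, against 17 and 15). Near-identical genes and estimated counts limit the precision of single paralogs, and Mki67, Top2a and Chrne rest on few counts in one of the groups.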

Other observations

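Splicing regulators of muscle changed in every tested member: of 17, 13 fell and 4 rose. Ptbp1, which represses muscle exons in dividing cells, went from 82.9, 90.3 and 84.9 CPM to 25.8, 23.8, 26.3 and 27.1 CPM (-1.73 ± 0.05, edgeR adjusted p = 8.7e-21). Rbfox1, which promotes muscle exons, rose from 38.9, 45.0 and 44.1 CPM to 74.9, 69.5, 74.0 and 72.0 CPM (0.77 ± 0.06) and Mbnl1 rose by 0.23, while Celf2 and Rbm24 fell (log2 changes of -0.70 and -0.44). Among 19 small heat shock proteins and chaperones, 6 rose and 10 fell. Hspb7, which binds filamin C in muscle, rose from 149 to 303 CPM.

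Further gene families were counted after their values were seen. Of 78 mitochondrial ribosomal protein genes tested, 75 rose and 1 fell (median 0.58), where 37.4% of all genes rose. Of 77 cytosolic ribosomal protein genes, 17 rose and 15 fell (median 0.01), a balance that moved both ways, to 10 and 23 with scaling by library size only and to 25 and 11 without fused replicate 1. Of 10 tested SR splicing factors, 9 fell, among them Srsf5 from 198, 246 and 224 CPM to 75.2, 71.8, 69.9 and 81.6 CPM and Srsf3 from 181 to 77.2 CPM. These moved together with the retained-intron transcripts and nuclear RNAs, whose part was not tested. Of 13 tubulins, 9 fell and 3 rose, with Tubb5, of dividing cells, at 242 and then 132 CPM. Of 36 proteasome subunits, 19 fell and 9 rose, with none of the falls reaching 2-fold.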
